A study of Mus musculus with 8 samples.

Results

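The genes described here are the aminoacyl-tRNA synthetases of mouse pancreatic tumour cells. They were chosen by symbol: protein-coding genes named with 1 capital letter, "ars" and an optional 1 or 2, together with Eprs, Farsa, Farsb and Tarsl2. The rule found 38 genes among the 21390 protein-coding genes and 55536 genes listed. A suffix of 2 marks the mitochondrial enzymes, of which there were 17, and the other 21 were cytosolic. All 38 passed the minimum of a mean count of 30 in both assays.

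The libraries came from KRPC-A, a line of PDAC-like pancreatic tumour cells from engineered C57BL/6 mice, either Gcn2 wild type (WT) or Gcn2 knockout (KO). Cells of both genotypes were moved for 1 h to amino acid-replete medium or to medium without leucine, and each condition gave 1 RNA-seq and 1 ribosome footprint library, all lysed with cycloheximide. The 8 libraries thus form 8 groups of 1, so no value has a replicate check, no test across cultures was possible, and every interval below is a 95% interval for counting error only. Values of all 4 libraries of an assay are given in 1 order throughout: WT replete, then WT without leucine, then KO replete, then KO without leucine. The construction of the knockout and its clonal status are not stated in the sources used.

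A synthetase joins an amino acid to its transfer RNA (tRNA), and the charged tRNA carries it to the ribosome. Cytosolic enzymes serve the main protein synthesis machinery, and most mitochondrial enzymes come from separate nuclear genes. Gars and Kars encode both forms, and mitochondrial glutaminyl-tRNA is made by an amidotransferase. Uncharged tRNA activates the kinase GCN2, which favours translation of the transcription factor ATF4, and several cytosolic synthetase genes are described as ATF4 targets.

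Protein-coding counts ran from 31358244 to 41912755 in the RNA libraries. Those of the footprint libraries were 9250492, 2425288, 6477231 and 4167902, so the WT leucine-free library gave the widest intervals. Levels below are counts scaled to a library total of 1000000 within an assay (CPM) and are relative, so a lower value can also mean more reads on other genes. Eif2ak4, the gene for GCN2, had 3601 and 2838 RNA counts in WT replete and leucine-free cells and 522 and 519 in KO cells. Of 8 duct and epithelial markers 7 had RNA counts in every library, though Krt19 had only 7 to 25 and Muc1 15 to 32, and Epcam was at 0, while 4 acinar markers summed to at most 5 counts and 5 immune and endothelial markers to at most 37. The summed CPM of the 6 fibroblast and mesenchyme markers was 1145 to 1603, of which Vim gave 1079 to 1539, with at most 17 counts of Pdgfra and 2 of Dcn in any library.

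Windows around the RefSeq start sites (build GRCm38.p6, from 250 bases before to 50 after) were available for 28 of the 38 genes and were searched on both strands for TGATGNAA, the core of the C/EBP-ATF response element, to which ATF4 binds. The core was found in 5 of 28 genes, which is 17.2% of the 29 windows of these genes, against 3.97% of all 32851 windows. All 5 were cytosolic: the core was in 5 of 14 cytosolic genes and in 0 of 14 mitochondrial genes. The 5 genes also belong to the 11 cytosolic synthetases listed here as described ATF4 targets, of which 8 had a window. For each gene the 30-base stretch whose core is nearest to the start site is shown, because all 5 genes are cytosolic, with the core in capitals on the gene's own strand.

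Yars: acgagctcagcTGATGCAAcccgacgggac
Gars: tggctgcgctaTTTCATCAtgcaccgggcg
Aars: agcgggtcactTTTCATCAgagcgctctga
Iars: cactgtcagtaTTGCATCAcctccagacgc
Tars: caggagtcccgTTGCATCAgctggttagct

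These stretches lie at chr4:129189895-129189924 on the plus strand (Yars, tyrosine), chr6:55037960-55037989 on the plus strand (Gars, glycine), chr8:111033840-111033869 on the plus strand (Aars, alanine), chr13:49682126-49682155 on the plus strand (Iars, isoleucine) and chr15:11399655-11399684 on the minus strand (Tars, threonine). The Yars match is in the forward direction and the other 4 printed matches are reversed. A match of these letters is a description of the sequence and not evidence of binding. Genes with no entry included Cars, Hars, Hars2, Lars, Nars, Pars2, Rars, Vars and Wars.

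Cytosolic synthetases were more highly represented than mitochondrial ones in both assays. Footprint levels are compared between genes as CPM per kilobase of exon. That length takes in all listed exons of a gene, untranslated parts included, so the order of genes depends on it. The median over the 21 cytosolic genes was 74.7, 65.9, 62.1 and 54.3 CPM per kb in the 4 libraries. The median over the 17 mitochondrial genes was 4.78, 4.93, 5.58 and 5.55 CPM per kb. The lowest of the 4 cytosolic medians therefore stood far above the highest mitochondrial median.

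The highest and lowest genes of each compartment were mostly the same in every footprint library. Per kb of exon, Gars, the glycine enzyme, was the highest cytosolic gene in every footprint library, at 169 to 199. Tarsl2, a second threonine enzyme, was the lowest, at 4.87 to 7.85 CPM per kb. Kars (lysine), Rars (arginine) and Dars (aspartate) followed Gars in WT replete cells at 153, 149 and 149 CPM per kb, and the counting intervals of these neighbours overlapped. Before division by length Gars had 615 CPM in WT replete cells, below Eprs at 1352, Kars at 684, Vars at 679.9 and Dars at 649. Among mitochondrial genes Yars2 (tyrosine) was highest per kb at 40.6 to 47.7, followed in every library by Iars2 (isoleucine) and Rars2 (arginine). Before division by length Yars2 had 129.9 CPM in WT replete cells and Iars2 had 312. The low end held Pars2 (proline), Ears2 (glutamate) and, in KO leucine-free cells, Nars2 (asparagine) at 2.47 CPM per kb.

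**Figure D1:**
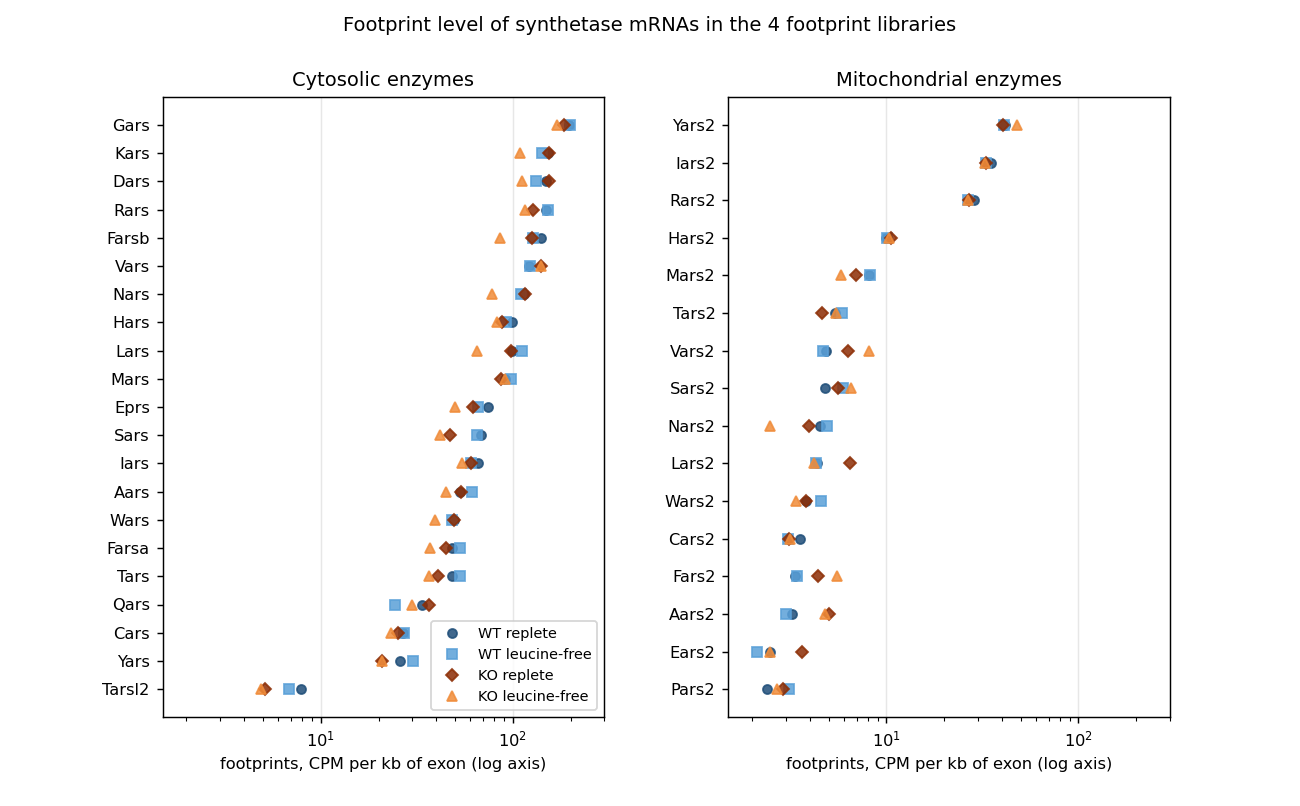
Footprint level of the synthetase genes, in CPM per kb of exon on a log axis, in the 4 footprint libraries (symbols), with cytosolic enzymes on the left and 16 of the 17 mitochondrial enzymes on the right. Gars is highest (169 to 199) and Tarsl2 lowest among the cytosolic genes, and most mitochondrial genes lie below 10 CPM per kb.

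For 19 pairs of a cytosolic and a mitochondrial gene of the same amino acid, the cytosolic gene had the higher footprint level per kb in 17 or 18 pairs, depending on the library. The median ratio was 13.6, 10.9, 10.6 and 8.50, highest in WT replete cells. Per kb of exon, tyrosine was the exception in every library, with Yars at 0.629, 0.741, 0.515 and 0.437 times the level of Yars2. Before division by exon length Yars was higher than Yars2 in the WT libraries, at 154 and 181 CPM against 129.9 and 129. In the KO libraries Yars was lower, at 124 and 124 CPM against 128 and 150.3, with overlapping intervals in replete medium. In RNA the cytosolic gene was higher in 17 or 18 pairs, and the exception in every library was leucine, with Lars at 0.172 to 0.392 times the level of Lars2. In footprints the same pair stood the other way, with Lars at 15.1 to 26.0 times Lars2.

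Translation efficiency (TE) is the normalised footprint level over the normalised RNA level of a gene. The cytosolic median was 2.08, 2.02, 2.21 and 1.78, lowest in KO leucine-free cells. The mitochondrial median was 1.06, 1.17, 1.23 and 1.25, near the 1.01 to 1.02 of all 9097 genes measured in both assays. Sars, the serine enzyme, had the highest TE of the cytosolic genes in all 4 libraries, at 6.01 to 8.53. The lowest TE of all 38 genes in every library was that of Lars2, at 0.0139 to 0.0444, where 5% of all measured genes lay below 0.203 to 0.228.

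In WT cells, leucine withdrawal left cytosolic synthetase footprints close to their replete level. The median log2 ratio of leucine-free over replete medium was -0.04, with a range of -0.15 to 0.10 between the medians of the genes' lower and upper interval bounds, and the all-gene median was 0.01. Of the 21 genes 10 were above 0 and 11 below. A gene is called here when its log2 ratio is at least 0.5 in size (1.41-fold) and its interval excludes 0. No cytosolic gene was called, against 9.71% of all 9169 genes measured in footprints (4.25% lower). Yars was highest at 0.23 (0.07 to 0.39) and Qars, the glutamine enzyme, lowest at -0.48 (-0.64 to -0.32). How many genes stood above 0 ranged from 3 to 10 over the ways of scaling tried, so the direction of this group in WT cells was not settled.

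In KO cells, nearly all cytosolic synthetases had lower footprint levels without leucine. The median log2 ratio was -0.17 (range of bounds -0.34 to -0.06), and 20 of 21 genes were below 0, against 49.7% of all genes. Mars, the methionine enzyme, was the exception at 0.07 (-0.03 to 0.17), and Yars was at 0.00 to 2 decimals (-0.16 to 0.16). Lars, Nars (asparagine) and Farsb (beta subunit of the phenylalanine enzyme) were called lower, at -0.57, -0.57 and -0.56. These 3 genes are 14.3% of the cytosolic group, where 6.03% of all genes were called lower and 8.88% higher. The number below 0 stayed between 18 and 20 in every setting tried.

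Summed over the group, cytosolic footprints were 8891, 8693, 8378 and 6947 CPM. The KO leucine-free library was the lowest of the 4. The log2 ratio of the sums was -0.03 (-0.05 to -0.01) in WT cells and -0.27 (-0.29 to -0.25) in KO cells. Mitochondrial footprints summed to 976, 973, 997 and 980 CPM, and neither log2 ratio left 0 beyond its counting interval (-0.07 to 0.06 in WT cells, -0.08 to 0.03 in KO cells). In KO cells the intervals of the cytosolic and mitochondrial ratios did not overlap. The mitochondrial sum there rested largely on Iars2, at 295 and 292 CPM, and Yars2, at 128 and 150.3 CPM.

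**Figure D2:**
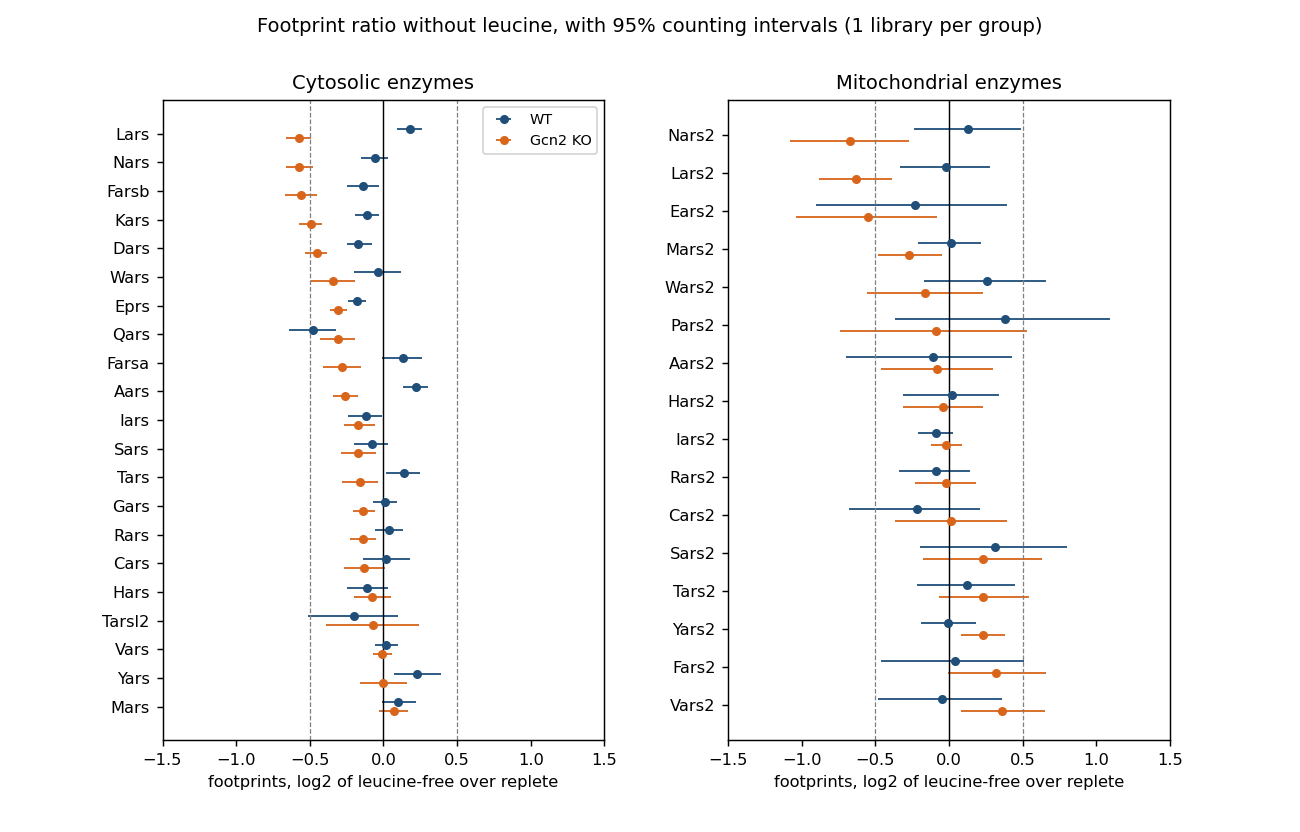
Log2 ratio of footprints in leucine-free over replete medium for the synthetases in WT (blue) and Gcn2 KO cells (orange), with 95% counting intervals and dashed lines at 0.5 in size, genes ordered by the KO value and 16 of the 17 mitochondrial genes shown. In KO cells 20 of 21 cytosolic genes lie at or below 0, Lars, Nars and Farsb beyond the dashed line, and the mitochondrial genes spread to both sides.

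Lars, the cytosolic leucine enzyme and a member of the multisynthetase complex, had the largest WT minus KO difference in footprint response among the cytosolic genes. Its footprint level was 532 CPM in WT replete cells, 601 after leucine withdrawal, 524 in KO replete cells and 352 after withdrawal. The 3 other libraries lay between 524 and 601, and the KO leucine-free library stood alone below them. The log2 ratio for leucine withdrawal was 0.18 (0.09 to 0.26) in WT cells and -0.57 (-0.66 to -0.49) in KO cells, so the WT minus KO difference was 0.75 (0.63 to 0.87). Its RNA level was 266, 285, 219 and 198 CPM, and the WT minus KO difference in RNA was 0.24 (0.18 to 0.30). Its TE was 2.0, 2.11, 2.40 and 1.78, with a WT minus KO difference of 0.51 (0.38 to 0.65). Lars RNA and footprints were therefore both lowest in KO leucine-free cells.

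Nars footprints were 499.9, 479.6, 505 and 339 CPM. The WT minus KO difference in response was 0.51 (0.39 to 0.64). For Farsb the 4 values were 369.5, 336, 330.5 and 225 CPM. In both genes the KO leucine-free library was the lowest, and the difference for Farsb, 0.42 (0.26 to 0.58), was not called. Lars and Nars were the cytosolic genes called in this difference, 9.52% of the group against 8.64% of all genes, a share near the background. Under other scalings Nars could lose its call, leaving 1 gene.

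By sign, 18 of 21 cytosolic genes had a higher footprint ratio in WT than in KO cells, against 51.6% of all genes, with a median WT minus KO difference of 0.18 (range of bounds 0.04 to 0.36). Over the settings tried the number ran from 14 to 19. The exceptions were Qars at -0.17, Tarsl2 at -0.13 and Hars (histidine) at -0.03, each with an interval that included 0. In the mitochondrial group 9 of 17 genes were higher in WT cells, and the median was 0.06 (range of bounds -0.43 to 0.57).

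The other branched-chain enzymes did not follow Lars. Iars, the isoleucine enzyme, had 346, 318, 321 and 286 footprint CPM, and its WT minus KO difference was 0.04 (-0.11 to 0.20). Vars, the valine enzyme, had 679.9, 689.7, 791 and 788 CPM, and its difference was 0.03 (-0.07 to 0.13). Both intervals lay wholly below the interval for Lars. Vars was also 1 of 2 cytosolic genes with more footprints in KO than in WT cells without leucine, at 0.19 (0.11 to 0.28), the other being Qars at 0.29 (0.11 to 0.47).

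The 8 complex enzymes (Eprs, Iars, Lars, Mars, Qars, Rars, Kars and Dars) were compared with the 13 cytosolic enzymes outside the complex. In KO cells the median footprint log2 ratio without leucine was -0.31 inside and -0.16 outside the complex. In the WT minus KO difference the medians were 0.15 and 0.23. For KO over WT in leucine-free medium they were -0.31 and -0.49. Neither group was lower throughout. Eprs, which serves glutamate and proline, had the highest footprint count before scaling by length, 1352, 1194, 1124 and 909 CPM, and Kars went from 684 and 633 CPM in WT cells to 687 and 488 in KO cells.

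The 11 synthetases listed as described ATF4 targets were Aars, Cars, Eprs, Gars, Iars, Mars, Nars, Sars, Tars, Wars and Yars. The list was written by hand. In footprints, the medians of the 11 listed and the 10 other cytosolic genes lay near each other. In KO cells without leucine they were -0.17 and -0.29, and for KO over WT in leucine-free medium -0.39 and -0.38. Some medians outside footprints lay further apart. For KO over WT in replete medium the RNA medians were -0.25 and -0.04. For leucine withdrawal in WT cells they were 0.06 and 0.21 in RNA, and -0.04 and -0.23 in TE. The WT minus KO difference in footprints was above 0 in all 11 listed genes, with a median of 0.15. It was above 0 in 7 of the 10 others, with a median of 0.23. For the 5 genes whose windows hold the core printed above, this difference was above 0 in all 5, from 0.04 in Iars to 0.47 (0.35 to 0.59) in Aars. Aars had 493, 573, 498 and 416 CPM, so the library of WT cells without leucine was highest and that of KO cells without leucine lowest. None of the 5 was called in the difference.

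Atf4 itself had 172, 528, 199 and 213 footprint CPM, and its WT minus KO difference was 1.52 (1.36 to 1.68). That difference was larger than for any of the 38 synthetase genes in footprints. Its RNA level was 261 CPM in WT replete cells and 465 to 528 in the other 3 libraries.

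In RNA, the cytosolic synthetases differed little with leucine after 1 h, and the mitochondrial genes called in RNA (Lars2, Ears2 and Fars2) are described further on. The cytosolic median log2 ratio was 0.10 in WT cells and 0.05 in KO cells. No cytosolic gene was called in either genotype, against 9.11% of all 10807 genes in WT and 11.6% in KO cells. Farsa, the alpha subunit of the phenylalanine enzyme, was highest in both, at 0.37 (0.32 to 0.42) and 0.39 (0.34 to 0.44). In the WT minus KO difference of RNA responses no cytosolic gene was called either, against 16.5% of all genes. The cytosolic median was 0.12, and without Gars and Kars, which serve both compartments, it was 0.01.

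Cytosolic TE was lower without leucine in KO cells in 20 of 21 genes, with a median of -0.28 (range of bounds -0.39 to -0.15), against 50.8% of all genes below 0. Farsa at -0.67, Farsb at -0.65, Qars at -0.58 and Nars at -0.52 were called, 19.0% of the group where 10.3% of all genes were called lower. Farsa had 119.8, 155, 159.5 and 209 RNA CPM and 220.3, 241, 204 and 168 footprint CPM, so its RNA was highest and its footprints lowest in KO leucine-free cells. Its TE was 1.84, 1.56, 1.28 and 0.802. In WT cells the cytosolic median was -0.21, and Qars at -0.72 (-0.89 to -0.55) was the single gene called, against 10.3% of all genes called lower. In WT cells 15 of 21 genes were below 0, against 51.7% of all genes, and this number ran from 13 to 19 over the settings. The WT median moved with the scaling, and the all-gene median moved with it, as given with the limits.

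In the WT minus KO difference of TE responses, Lars at 0.51, Sars at 0.55 (0.33 to 0.76) and Yars at 0.51 (0.27 to 0.76) were called higher, 14.3% of the cytosolic group against 12.4% of all genes. The mitochondrial genes called were Ears2 at 1.09 (0.28 to 1.90) and Nars2 at 0.80 (0.26 to 1.35) higher, and Lars2 at -1.17 (-1.55 to -0.79) lower, where 13.9% of all genes were called lower. Ears2 rested on 26 footprint counts in WT leucine-free cells and 55 in KO leucine-free cells. These TE values share the libraries of the footprint and RNA comparisons and are not separate evidence.

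In replete medium few cytosolic synthetases were called lower in KO than in WT cells, at shares not far above those of all genes. Sars, Tarsl2 and Yars were called lower in RNA, at -1.05 (-1.15 to -0.95), -0.62 (-0.72 to -0.52) and -0.55 (-0.62 to -0.49). These are 14.3% of the group, where 9.94% of all genes were called lower and 23.3% were called in either direction. Sars RNA was 58.7, 52.8, 28.4 and 35.0 CPM, so both KO libraries lay below both WT libraries. Its footprints were 353, 334, 242 and 215 CPM, in the same arrangement, with a replete KO over WT log2 ratio of -0.55 (-0.63 to -0.46). Tarsl2 footprints, 52.9, 46.0, 34.5 and 32.8 CPM, were likewise lower in both KO libraries, and in replete medium the log2 ratio was -0.61 (-0.85 to -0.38). Sars and Tarsl2 are 9.52% of the cytosolic group, and 6.63% of all genes were called lower in footprints. The cytosolic medians in replete medium were -0.11 in RNA and -0.09 in footprints.

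In TE, Sars was called higher in KO than in WT replete cells, at 0.50 (0.37 to 0.64), and Farsa lower, at -0.52 (-0.64 to -0.41). Over all genes 6.55% were called higher and 5.63% lower.

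Without leucine, the footprint levels of cytosolic synthetases were lower in KO than in WT cells in 19 of 21 genes. The median log2 ratio was -0.39 (range of bounds -0.48 to -0.28), against an all-gene median of 0.00. Lars at -0.77, Sars at -0.64, Farsb at -0.58, Tars at -0.54, Yars at -0.54, Farsa at -0.52 and Nars at -0.50 were called lower. These 7 genes are 33.3% of the group, where 11.6% of all genes were called lower. Several lay close to the limit of 0.5: 3 were called with total counts in place of trimmed-mean scaling and 4 after removal of a trend with gene length. Tars had 285, 313, 241 and 215 CPM, and Yars had 154, 181, 124 and 124 CPM. In both genes the KO libraries lay below the WT libraries.

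The cytosolic log2 ratio of summed footprints in this comparison was -0.32 (-0.35 to -0.30), and the mitochondrial one was 0.01 (-0.06 to 0.08). The median of the 17 mitochondrial genes was 0.00, with 8 above 0 and 9 below. In RNA the cytosolic median was -0.27, and Tarsl2 at -0.96, Sars at -0.59, Lars at -0.52, Dars at -0.51 and Tars at -0.51 were called lower, 23.8% of the group against 12.1% of all genes. Dars RNA was 242, 289, 224 and 202 CPM, and its footprints were 649, 577, 669 and 489 CPM. Tarsl2 RNA was 50.5, 50.9, 32.8 and 26.1 CPM. In TE, Farsa at -0.96 (-1.12 to -0.79) was the single cytosolic gene called, against 11.3% of all genes called lower.

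Class II enzymes, which share a catalytic fold unlike that of class I, made up 11 of the cytosolic genes. In leucine-free medium all 11 were lower in KO than in WT footprints, with a median of -0.49, and 5 were called. Of the 9 class I genes, 7 were lower, with a median of -0.24, and Lars and Yars were called. Over all genes 50.1% were below 0 and 11.6% were called lower in this comparison, and the difference between the classes was not tested. Eprs carries both kinds of domain and is in neither group.

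WT and KO cells differed in more than these genes. The summed RNA level of the 8 duct and epithelial markers was 234 and 323 CPM in WT cells, replete and without leucine, and 473 and 1089 in KO cells, so it was highest in the KO leucine-free library. Most of that sum came from Sox9, at 153, 187, 291 and 751 CPM, and Krt18, at 59.5, 105, 145 and 283 CPM. Krt19 was at 0.595, 0.319, 0.261 and 0.226 CPM, lowest in that library, and Epcam had no RNA count. Whether this difference between the cell lines has a part in the synthetase values was not tested.

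**Figure D3:**
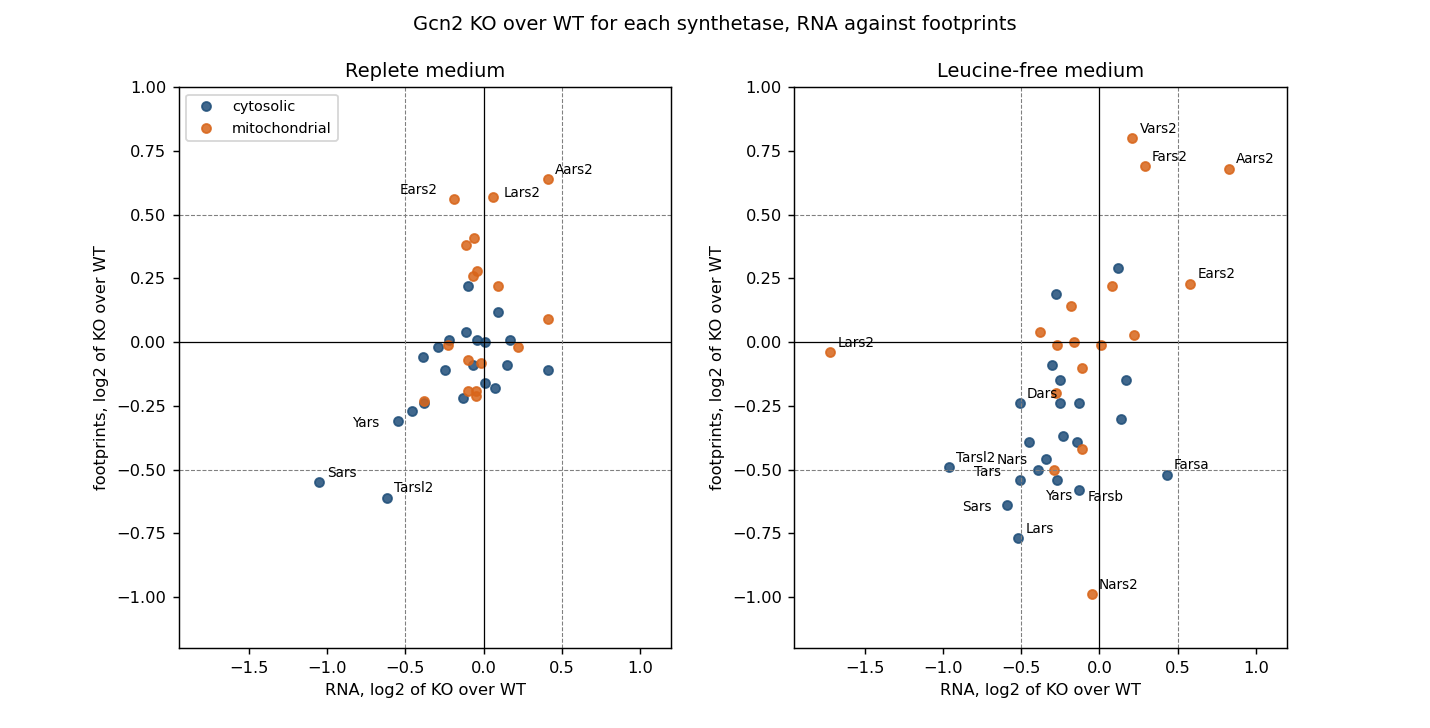
Log2 ratio of KO over WT for each synthetase, RNA on the horizontal and footprints on the vertical axis, in replete (left) and leucine-free medium (right), with dashed lines at 0.5 in size and called genes named. Without leucine 19 of 21 cytosolic genes (blue) lie below 0 in footprints, while 8 of 17 mitochondrial genes (orange) lie above 0, and Lars2 stands at -1.72 in RNA.

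Mitochondrial synthetases showed no common direction in footprints. The median log2 ratio without leucine was 0.01 in WT cells and -0.02 in KO cells, and the median of KO over WT in replete medium was 0.09. In WT cells none of the 17 was called, against 9.71% of all genes. In KO cells Nars2 at -0.67, Lars2 at -0.63 and Ears2 at -0.55 were called lower, 17.6% of the group against 6.03% of all genes. Most mitochondrial genes had fewer than 300 counts in each footprint library, and the intervals were correspondingly wide.

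Nars2, the mitochondrial asparagine enzyme, had 31.4, 34.3, 27.4 and 17.2 footprint CPM. KO leucine-free cells stood lowest, with a log2 ratio to WT leucine-free cells of -0.99 (-1.47 to -0.52) and a WT minus KO difference of 0.80 (0.27 to 1.33). The same ratio in Nars2 RNA was -0.05 (-0.15 to 0.05), from 43.1, 48.7, 41.5 and 47.0 CPM. Its TE was 0.727, 0.705, 0.661 and 0.366. Both asparagine enzymes, Nars and Nars2, thus had their lowest footprint level in KO leucine-free cells, which was not particular to asparagine. Most cytosolic genes were also lowest in that library, as was the cytosolic sum, at 6947 CPM. Nars2 and Lars2 were the mitochondrial genes called in the WT minus KO difference of footprints, 11.8% of the group against 8.64% of all genes called higher.

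Aars2 (alanine), Fars2 (phenylalanine) and Vars2 (valine) had more footprints in KO than in WT cells without leucine, at 0.68 (0.10 to 1.29), 0.69 (0.21 to 1.21) and 0.80 (0.38 to 1.24). They are 17.6% of the mitochondrial group, against 15.1% of all genes called higher, a share near the background. Vars2 footprints were 26.5, 25.5, 34.5 and 44.4 CPM, Aars2 footprints 15.4, 14.2, 24.0 and 22.8 CPM and Fars2 footprints 19.1, 19.7, 25.4 and 31.9 CPM. In all 3 genes both KO libraries lay above both WT libraries. In replete medium Aars2 at 0.64, Lars2 at 0.57 and Ears2 at 0.56 were called higher, where 9.39% of all genes were.

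Ears2, the mitochondrial glutamate enzyme, had 12.5, 8.49, 11 and 12.7 RNA CPM and 12.8, 10.9, 18.8 and 12.8 footprint CPM. Its RNA was called lower without leucine in WT cells, at -0.56 (-0.76 to -0.36), where 4.09% of all genes were. In RNA, Fars2 at 0.53 (0.33 to 0.74) was called higher without leucine in KO cells, against 6.42% of all genes. Aars2 at 0.83 (0.65 to 1.02) and Ears2 at 0.58 (0.37 to 0.79) were called higher in KO than in WT cells without leucine, where 14.7% of all genes were. In the WT minus KO difference of RNA Ears2 was called lower at -0.77 (-1.05 to -0.49), against 8.43% of all genes. No mitochondrial gene was called in RNA for KO over WT in replete medium, where 23.3% of all genes were.

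For mitochondrial TE, Lars2 at -0.98 and Cars2 (cysteine) at -0.50 were called lower without leucine in WT cells, and Nars2 at -0.85 and Ears2 at -0.76 in KO cells, against 10.3% of all genes in each genotype. Ears2 at 0.74 and Lars2 at 0.50 were called higher in KO than in WT replete cells, against 6.55% of all genes. In leucine-free medium Lars2 at 1.67 and Vars2 at 0.58 were called higher, where 14.4% of all genes were, and Nars2 at -0.94 was called lower, where 11.3% were.

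Lars2, the mitochondrial leucine enzyme, stood apart from every other synthetase in its RNA counts. The gene lies at chr9:123366927-123462666 on the plus strand of GRCm38, with 11089 nt of exon that overlap no other listed gene. Its RNA level was 1754, 3422, 1834 and 1042 CPM. Its RNA was therefore highest in WT and lowest in KO cells without leucine. The log2 ratio for leucine withdrawal was 0.96 (0.95 to 0.98) in WT and -0.82 (-0.83 to -0.80) in KO cells, called higher and lower where 5.02% and 5.19% of all genes were. The WT minus KO difference was 1.78 (1.76 to 1.80), where 8.06% of all genes were called higher. KO over WT without leucine was -1.72 (-1.73 to -1.70).

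At a stricter limit of 1 in size, the calls left were Sars RNA for KO over WT in replete medium, against 2.49% of all genes called lower, Lars2 in RNA and TE, and Ears2 in TE. For Lars2 the shares of all genes were 3.12% lower in RNA and 3.98% higher in TE for KO over WT without leucine, and 2.20% higher in RNA and 4.48% lower in TE for the WT minus KO difference. For Ears2 3.31% of all genes were called higher in TE. Lars2 was thus the gene with the most calls of that size.

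Footprints on Lars2 did not follow its RNA in WT cells, whereas in KO cells both were lower without leucine. Footprints were 48.3, 47.7, 71.7 and 46.3 CPM, from 439, 114, 465 and 199 counts, against 73707, 139378, 70275 and 32327 RNA counts. The KO replete library was highest, and the other 3 did not differ beyond their counting intervals. The footprint log2 ratio for leucine withdrawal was -0.02 (-0.33 to 0.28) in WT cells and -0.63 (-0.88 to -0.39) in KO cells, where the TE ratio was 0.19 (-0.05 to 0.43) and was not called. The WT minus KO difference of Lars2 footprints, 0.61 (0.23 to 0.99), was called in the same direction as that of its RNA. Lars2 RNA made up most of the mitochondrial group's RNA, whose sum was 2574, 4213, 2611 and 1770 CPM with it and 819, 791, 777 and 728 CPM without it.

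The listed gene Gm15564, named here after its values were seen, had 552, 1008, 506 and 301 RNA CPM and at most 2 footprint counts in any library. Its log2 ratios were 0.87 (0.85 to 0.89) in WT and -0.75 (-0.78 to -0.71) in KO cells without leucine. As for Lars2, its RNA was highest in WT and lowest in KO cells without leucine. Mitochondrial large-subunit ribosomal RNA, mt-Rnr2, had 256307, 351498, 377793 and 397262 CPM on the same scale, which is relative to protein-coding reads, and was lowest in WT replete cells. Mitochondrial ribosomal RNA took 24.7% of all RNA counts in WT replete cells and 30.5% to 33.6% in the other 3 libraries. Whether reads from another transcript have a part in the Lars2 RNA count was not tested.

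**Figure D4:**
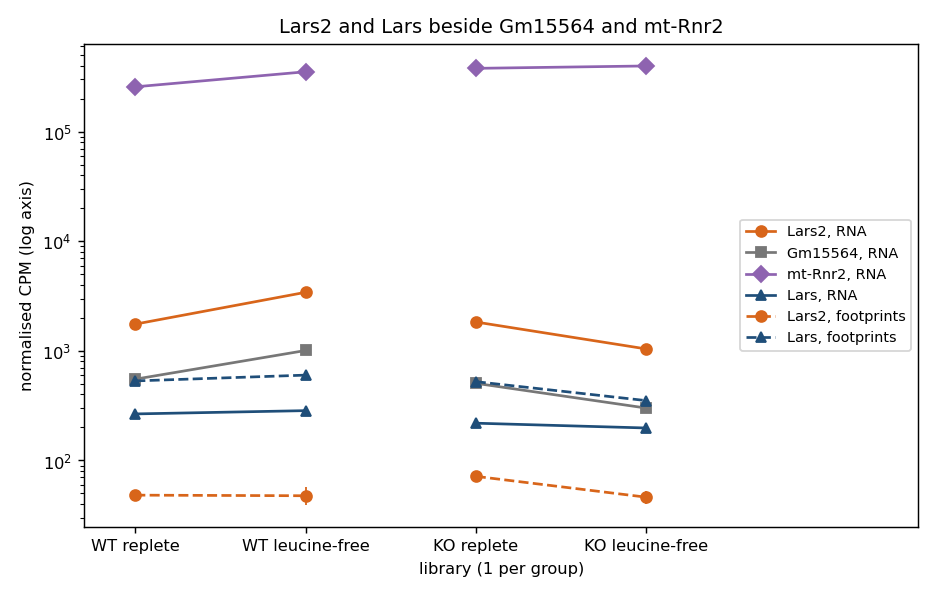
Normalised CPM on a log axis in the 4 conditions for RNA (solid lines) of Lars2, Gm15564, mt-Rnr2 and Lars and for footprints (dashed lines) of Lars2 and Lars, with 95% counting intervals. Lars2 RNA runs from 1754 to 3422 in WT and from 1834 to 1042 in KO cells, while Lars2 footprints stay between 46.3 and 71.7.

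Some synthetase genes share exon sequence with neighbours, and reads there were not counted for either gene. The shared part was 24.2% of the exon length of Iars2, 15.1% of Aars and 10.7% of Fars2. Hars and Hars2, which start close together on opposite strands, share 195 nt, and Mars shares 68 nt with Ddit3. Whether the RNA libraries keep strand is not stated in the sources used.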

How the data were processed

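RNA-seq and ribosome footprint libraries of 2 genotypes in 2 media were used, 1 library per group. The deposited values are raw read counts per gene, made per the file headers with featureCounts 1.6.4 on exons of Ensembl release 96 models, without strand, multi-mapping or multi-gene options. The submitters' processing notes also name cutadapt, STAR, Subread and GRCm38. Ensembl identifiers gave symbols for 55450 of 55536 genes (99.8%), and the RefSeq table of GRCm38.p6 gave their class. Counts were scaled within each assay by edgeR 4.0.16 (R 4.3.3) TMM factors over protein-coding genes with a mean count of at least 30, which left 10807 genes in RNA, 9169 in footprints and 9097 in both. Factors ran from 0.983 to 1.03. Log2 ratios used a prior count of 0.5. Intervals are at 95%: Clopper-Pearson from the conditional binomial for ratios of libraries, Wald for TE and for WT minus KO, exact Poisson for CPM. Reads carry no molecular identifiers and PCR copies are not independent, so intervals cover counting error only. No p-value was computed. Counts include reads in untranslated regions. Scripts were tested on simulated data. Tables used Python 3.11.15, pandas 2.3.3 and scipy 1.17.1.

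Genes and lists were chosen with earlier results of these data known. Every synthetase called in RNA or footprints is named with its values, as are Lars and Lars2, and the others are given by ranges and counts, with examples per group. The values of 1 mitochondrial gene, which stays in all counts, and 1 promoter stretch are not reported here. The comparisons share libraries: the KO leucine-free library enters the KO leucine response, KO over WT without leucine and the WT minus KO difference. Alternatives were total counts or DESeq2 1.42.0 size factors in place of TMM, TMM over all listed genes, other count minimums (10, 100), a prior count of 5, removal of a length trend, a call limit of 1 and leaving out Gars and Kars. TMM without a count minimum and leaving out Lars2 were added after seeing the data.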

Additional observations from a re-analysis of the deposited data

Results flagged for a closer look

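Lars2 RNA was higher without leucine in WT cells (log2 ratio 0.96, 0.95 to 0.98) and lower in KO cells (-0.82, -0.83 to -0.80), a WT minus KO difference of 1.78. It is given here because the genotypes went opposite ways. With 1 library per group the difference was not tested. In WT leucine-free cells Lars2 had 139378 RNA counts and 114 footprint counts, and its WT footprint log2 ratio for leucine withdrawal was -0.02. Whether reads from another transcript have a part in the Lars2 RNA count was not tested either.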

How the results depend on the processing

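Of 270 recomputed group medians 266 kept their value within the counting range, and none changed sign beyond it. That range lies between the medians of the genes' interval bounds and is not an interval for a group median. For mitochondrial footprints it was wide, so a median there could hardly leave it. In WT cells the mitochondrial footprint ratio ran from -0.14 to 0.01 over the settings, within a range of -0.31 to 0.39. The 4 medians that left the range were cytosolic. With TMM over all listed genes, the WT leucine ratio was -0.19 in footprints and -0.38 in TE, with the all-gene medians at -0.14 and -0.19, so relative to all genes the shift is small. With TMM over coding genes without a count minimum, an alternative added after seeing the data, it was -0.30 in TE. The all-gene median in TE was then -0.11. Without Gars and Kars the WT minus KO difference in RNA was 0.01. Counts of called genes moved by over 1.5 times in 58 of 300 cases, 23 of them at a limit of 1. For the cytosolic footprints of KO over WT without leucine the count was 7, against 3 with total counts 4 with the length trend removed and 0 at a limit of 1. The WT minus KO count in footprints was 2, against 1 with either of these or with another TMM gene set. Cytosolic TE counts of 1 to 3 moved to between 1 and 4 under other scalings, and with either other TMM gene set 1 cytosolic gene was called in WT footprints in place of 0. A count minimum of 100 or a prior count of 5 reduced mitochondrial TE counts of 2 to 1, and TMM over all listed genes raised 1 of 3 to 5. Leaving out Lars2 reduced mitochondrial counts of 2 to 1. No paired analysis was possible because each group has 1 library. Depth limits the mitochondrial footprints most, above all in WT leucine-free cells.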

Other observations

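Partners of the synthetases and other tRNA factors (16 genes) showed no common direction in their footprint response to leucine withdrawal. Their median footprint log2 ratio without leucine was -0.02 in WT cells, where 8 of 16 were above 0, and -0.04 in KO cells, where 6 of 16 were. Prorsd1 was called lower in WT cells at -0.68, against 4.25% of all genes. In KO cells Sephs2, which makes selenophosphate, was called higher at 0.91 and Dtd2, a D-aminoacyl-tRNA deacylase, lower at -0.57, against 8.88% and 6.03% of all genes. Sephs2 footprints were 26.3, 29.3, 15.1 and 28.4 CPM in the order used above, so the KO replete library, at 98 counts, was the low one. Dtd2 rested on 52 counts in KO leucine-free cells and Prorsd1 on 22 in WT leucine-free cells. More of the 16 partner genes were lower than higher in KO than in WT footprints. In replete medium 11 of 16 were below 0, with a median of -0.10, against 49.7% of all genes. Without leucine the median was -0.15, with 12 of 16 below 0 against 50.1% of all genes, and Aimp2, a scaffold of the multisynthetase complex, was called lower, against 11.6% of all genes. Aimp1, another scaffold protein of the complex, had 30.8, 32.6, 16.4 and 25.2 RNA CPM and 248, 225, 206 and 171 footprint CPM in the order of libraries used above. Both its RNA values in KO cells lay below both in WT cells.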
